A study of Homo sapiens with 12 samples.

Results

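The comparison described here set 12Z cells that carried the PIK3CA*H1047R vector and were given insulin (H1047R insulin) against 12Z cells with the pBabe control vector and vehicle (control vehicle), that is, both treatments together against neither. Its members were the 3 libraries of each of these groups, 6 of the 12 in the series, chosen by their labels. 12Z is an immortalized epithelial line from human endometriosis, the growth of endometrium-like tissue outside the uterus. All cells had first been transfected with non-targeting siRNA and then, transiently, with a plasmid, so the cells of a group were a mixed transfected population and not a clone. They were kept without serum for 4 h and given serum-free medium with 100 nM insulin or vehicle for 24 h. The other 6 libraries, control insulin and H1047R vehicle, received 1 of the 2 treatments. They entered the same statistical fit and are used below to ask whether the joint change was the sum of the separate changes.

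PIK3CA encodes p110alpha, the catalytic subunit of a class I phosphoinositide 3-kinase, and H1047R is an activating substitution in its kinase domain. Insulin reaches the same enzyme through its receptor and the IRS adaptors. The lipid it makes recruits the kinase AKT, which activates mTORC1, a driver of protein synthesis and anabolic metabolism, and keeps FOXO transcription factors out of the nucleus.

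Gene counts per library were 26609566, 28386143 and 21483124 in control vehicle and 30071951, 35548499 and 37918025 in H1047R insulin, so all H1047R insulin libraries were deeper. Reads placed at several sites, which are not in the gene counts, made up 8.48 to 9.51% of reads in H1047R insulin and 14.63 to 15.03% in control vehicle, and mitochondrial genes took 2.18% against 2.94% of counts. Both differences separated the groups, with an exact two-sided permutation p = 0.1, the smallest that 3 against 3 libraries allow. Reads placed at several sites made up 13.62 to 15.36% in control insulin and 14.27 to 15.24% in H1047R vehicle. H1047R insulin was therefore lowest in this share and highest in depth among all groups, without overlap. The part of this share in the joint change and in the interaction below was not tested. Keratin genes of simple epithelia were abundant in control vehicle (KRT8 1439, KRT18 944 and KRT19 583 CPM, counts scaled to a common effective library size), but the epithelial adhesion genes EPCAM and CDH1 stood at 0.649 and 2.22 CPM, and 4 of 12 epithelial markers were below 1 CPM. All 12 markers of fibroblast or stromal cells were above 1 CPM, with COL1A1 at 2891 CPM. Of 8 leukocyte markers, CD3E and TYROBP had 0 counts in all libraries, while PTPRC and CD14 stood at 0.861 and 4.71 CPM in control vehicle.

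PIK3CA (ENSG00000121879.5, chromosome 3, 179148114 to 179240093 in hg38) checked the labels. It stood at 89, 88.2 and 88.7 CPM in control vehicle and at 734, 714 and 715 CPM in H1047R insulin. The groups were far apart (log2 fold change 3.02 ± 0.0903 SE, edgeR adjusted p = 7.32e-27), which was 8.14-fold. H1047R without insulin changed PIK3CA by 1.41 ± 0.0886 and insulin in control cells by -0.10 ± 0.0912 on the log2 scale. The joint change exceeded their sum by 1.72 ± 0.123 (adjusted p = 3.81e-14). The comparison was therefore also one between different PIK3CA levels, and how far these bear on the other genes was not tested.

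The libraries kept strand, and PIK3CA also had counts on the strand opposite to the gene. As CPM of total gene counts, without further scaling, these were at 72.7, 70.7 and 71.3 in H1047R insulin and at 0.864, 0.282 and 0.605 in control vehicle. In H1047R vehicle they were at 17.0, 7.54 and 10.0. Of these groups control vehicle was lowest, H1047R vehicle intermediate and H1047R insulin highest, with no overlap. Opposite-strand counts made up 8.83 to 8.93% of the PIK3CA counts of both strands in H1047R insulin and 0.323 to 0.975% in control vehicle. Among 2748 genes with at least 3 CPM on the opposite strand, PIK3CA had the highest ratio between the groups. Gene counts cannot assign these reads to the plasmid or the chromosome.

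**Figure D1:**
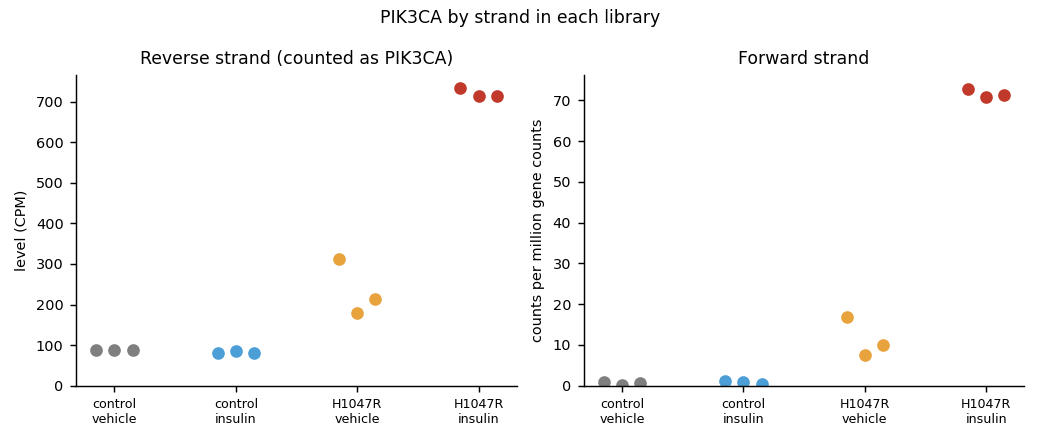
PIK3CA counts by strand in each of the 12 libraries (points), as CPM on the reverse strand, which was counted as PIK3CA (left), and as CPM of gene counts on the forward strand (right). The H1047R insulin libraries lie at 714 to 734 CPM on the left and at 70.7 to 72.7 CPM on the right, above all other libraries.

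Of 22756 genes tested, 5613 (24.7%) changed at a false discovery rate (FDR) below 0.001, 2789 higher (12.3%) and 2824 lower (12.4%). Increases reached further than decreases. More than 2-fold changes were found for 568 higher genes (2.50%) and 260 lower genes (1.14%). Libraries of the groups did not overlap for 48.4% of all genes. The calls depend on depth as well as on change: among 13324 genes averaging at least 1 CPM over the 6 libraries, 40.3% were called, 19.6% higher and 20.7% lower, and these shares are the nearer background for the gene lists below, most of whose members are well expressed. Sequenced RNA came from whole cultures, so fewer cells of a kind and less RNA per cell cannot be told apart.

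**Figure D2:**
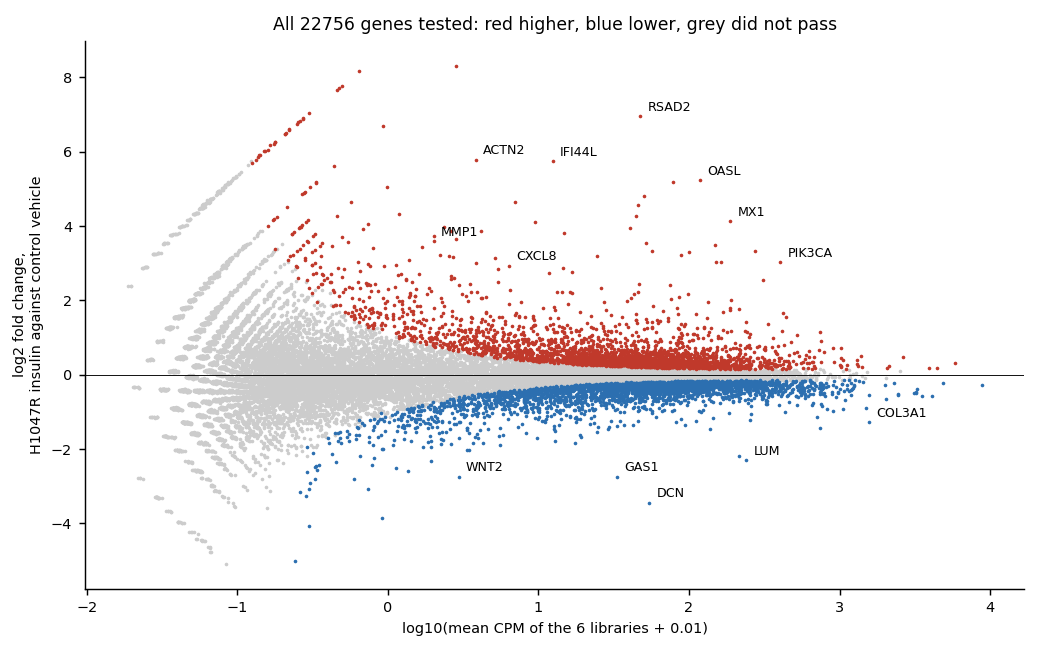
Log2 fold change of H1047R insulin against control vehicle (vertical) against the mean level of the 6 libraries (horizontal, log10 of CPM + 0.01) for the 22756 genes tested, with 2789 higher genes in red and 2824 lower genes in blue. RSAD2, OASL and MX1 lie far above and DCN, GAS1 and LUM far below the bulk of genes; at the left are genes with few counts or none in a group, whose fitted fold is not a bound.

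The largest increases were mostly in interferon-stimulated genes, the antiviral genes that cells switch on when interferons bind their receptors. RSAD2, OASL, OAS2, IFI44, IFI44L, CMPK2, MX1, MX2 and OAS1 were 9 of the 12 genes with the largest increase among called genes averaging at least 1 CPM. RSAD2 (ENSG00000134321.12, chromosome 2, 6865557 to 6898239), which encodes viperin, an enzyme that makes a chain-terminating nucleotide, stood at 0.609, 0.75 and 0.934 CPM in control vehicle and at 99, 86.2 and 98.1 CPM in H1047R insulin. No library of either group came near the other, and the change was 125-fold (log2 fold change 6.96 ± 0.259, adjusted p = 7.32e-24). CMPK2, a mitochondrial nucleotide kinase whose gene overlaps RSAD2 by 1079 bp on the opposite strand, rose from a mean of 0.521 to 13.3 CPM (log2 fold change 4.64 ± 0.22).

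The oligoadenylate synthetases, which sense double-stranded RNA and activate RNase L, rose together with their relative OASL. OASL was at 6.97, 5.43 and 5.93 CPM in control vehicle and at 223, 231 and 233 CPM in H1047R insulin (log2 fold change 5.23 ± 0.197). OAS2 and OAS1 rose by 5.18 ± 0.289 and 4.27 ± 0.249 on the log2 scale. OAS2 varied between libraries of a group, at 2.01 to 6.39 CPM in control vehicle and 119 to 187 CPM in H1047R insulin, without overlap. The dynamin-like GTPases MX1 and MX2, which block incoming viruses, lie side by side on chromosome 21 and rose by 4.12 ± 0.256 and 4.55 ± 0.246. MX1 reached 446, 269 and 355 CPM from 16.3, 29.2 and 14.8 CPM. IFI44 and IFI44L, neighbours on chromosome 1, rose by 4.81 ± 0.193 and 5.75 ± 0.305.

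Of 59 interferon-stimulated genes, 57 rose and 1 fell, 41 of the risen ones over 2-fold, with a median log2 fold change of 1.69 against -0.01 over all genes tested. The exceptions were IFITM2, an antiviral membrane protein (log2 fold change -0.39), and UBA7, the enzyme that charges ISG15 (0.00, which did not pass). Both were named after their values were seen, as are the exceptions, the genes with few counts and the pathway genes outside the naming rule that are described below. The joint change was larger than the sum of the separate changes for 51 of the 59, against 4.58% of all genes tested.

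Promoter windows are shown for RSAD2 and for the 3 listed genes averaging at least 1 CPM with the largest increase whose window holds the core of the interferon-stimulated response element, GAAANNGAAA on either strand. Each runs from 250 bases before to 50 bases after the first RefSeq start listed (GRCh38.p14), 5′ to 3′ on the strand of the gene, with the core in capitals. The windows are chr2:6865635-6865934 for RSAD2, chr1:78620198-78620497 for IFI44L, chr1:78649539-78649838 for IFI44 and chr21:41420308-41420607 for MX1, all on the + strand.
RSAD2: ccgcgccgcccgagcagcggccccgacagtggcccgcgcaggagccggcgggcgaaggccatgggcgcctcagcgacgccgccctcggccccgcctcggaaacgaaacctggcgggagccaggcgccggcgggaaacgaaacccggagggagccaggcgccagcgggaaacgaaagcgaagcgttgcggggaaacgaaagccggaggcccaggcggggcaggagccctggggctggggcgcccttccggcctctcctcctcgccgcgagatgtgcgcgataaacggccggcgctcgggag
IFI44L: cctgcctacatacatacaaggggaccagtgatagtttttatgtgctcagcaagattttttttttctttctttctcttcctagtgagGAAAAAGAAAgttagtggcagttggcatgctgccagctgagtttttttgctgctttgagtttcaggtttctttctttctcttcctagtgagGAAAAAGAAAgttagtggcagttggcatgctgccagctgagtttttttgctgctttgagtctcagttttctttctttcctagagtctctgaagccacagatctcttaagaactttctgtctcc
IFI44: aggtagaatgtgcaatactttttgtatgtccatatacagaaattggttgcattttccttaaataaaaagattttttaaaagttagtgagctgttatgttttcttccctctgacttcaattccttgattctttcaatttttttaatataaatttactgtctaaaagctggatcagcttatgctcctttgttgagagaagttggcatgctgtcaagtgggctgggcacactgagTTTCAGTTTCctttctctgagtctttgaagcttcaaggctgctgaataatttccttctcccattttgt
MX1: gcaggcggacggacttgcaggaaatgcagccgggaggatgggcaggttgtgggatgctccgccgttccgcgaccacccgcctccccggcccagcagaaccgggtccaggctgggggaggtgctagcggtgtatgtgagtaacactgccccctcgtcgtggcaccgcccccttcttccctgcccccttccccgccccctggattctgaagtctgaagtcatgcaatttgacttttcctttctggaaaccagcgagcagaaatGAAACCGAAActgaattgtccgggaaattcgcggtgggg

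The RSAD2 window holds no match, which says only that these letters are not in it. It lies within the 1079 bp that RSAD2 shares with CMPK2 and covers only the first start listed. Any other start of RSAD2 was not examined. IFI44L has 2 matches, IFI44 has 1 that reads on the opposite strand, and the match of MX1 lies after its start. Of 49 listed genes with a window, 33 (67.3%) held the core, against 996 of 27305 windows of all genes (3.65%). The median log2 fold change was 1.79 over the 33 genes with the core and 1.60 over the 16 without it, RSAD2 among the latter. These are descriptions of the windows, and no binding was measured.

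The interferon genes IFNL1 and IFNB1 had few counts, and whether interferons led to the rise above was not tested. IFNL1, a type III interferon that acts mainly on epithelia, had 0 counts in every control vehicle library and 37, 31 and 33 counts in H1047R insulin, at least 24.9-fold higher (against 3 counts over the group, covering counting error only; adjusted p = 5.92e-09). IFNB1, interferon beta, had 0 counts in control vehicle and 6, 3 and 7 in H1047R insulin, which did not pass (adjusted p = 0.00518). The interferon-induced chemokines CXCL10 and CXCL11, which attract T cells, went from 0 to 50 and from 1 to 43 counts over the groups. ZBP1, a sensor of Z-form nucleic acid, went from 0 to 28 counts.

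RIGI, the sensor of RNA with 5′ triphosphates, was at 17.1, 21.5 and 15.9 CPM in control vehicle and at 193, 170.1 and 183 CPM in H1047R insulin (log2 fold change 3.31 ± 0.124). The related helicase IFIH1 rose by 2.44 ± 0.124, and the transcription factor IRF7 by 2.23 ± 0.129. Of 35 ligands, receptors, sensors and transcription factors, 30 could be tested, 16 rose and 2 fell, with a median of 0.44. The 2 that fell were the receptor chains IFNAR1 and IFNGR1, by 0.25 and 0.22 on the log2 scale. Over the alternatives, 1 to 3 genes of the list fell, and 1 fell without control vehicle replicate 1 or 2 or any 1 of the H1047R insulin replicates. IFNL2, IFNL3, IFNG, AIM2 and IRF9 were not tested, since their symbols had no row above the count minimum.

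Of 15 genes that present peptides on MHC class I, 10 rose and 0 fell (median 0.44). HLA-B rose from 19, 16.7 and 16.7 CPM to 42.3, 34.3 and 36.2 CPM (log2 fold change 1.10 ± 0.0841). HLA-F and the peptide transporter TAP1 rose by 1.16 ± 0.184 and 0.90 ± 0.0772. HLA genes share sequence, so their counts of uniquely placed reads are uncertain. Proteasome subunits, which supply these peptides and clear damaged proteins, rose in 15 of 31 cases with 0 lower, by at most 0.57 (PSMC4).

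Of 37 inflammatory genes that depend on NF-kB, 33 were tested, 26 rose and 1 fell, with a median of 0.97. CXCL8, the neutrophil chemokine, was at 1.45, 1.61 and 1.35 CPM in control vehicle and at 12.9, 10.6 and 10.6 CPM in H1047R insulin (log2 fold change 2.93 ± 0.155). CCL5, a chemokine for T cells and monocytes, rose from 0.111 to 2.25 CPM (log2 fold change 4.33 ± 0.454). IL11, a cytokine of the IL6 family, rose from 5.89 ± 0.729 to 27.2 ± 0.89 CPM (SD, n = 3), by 2.21 ± 0.0936 on the log2 scale. TNFAIP3, which ends NF-kB signaling, and the TNF receptor family member TNFRSF9 rose by 2.17 ± 0.0873 and 2.10 ± 0.149. The gene that fell was the adhesion molecule VCAM1 (log2 fold change -0.38). IL24, a cytokine, went from 1 count to 61 over the groups, a ratio of 45.1 per total count (95% exact interval 7.79 to 1810).

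No leukocyte marker of the 6 tested changed, and the summed level of the 8 listed was 5.56 to 6 CPM in control vehicle and 4.96 to 5.25 CPM in H1047R insulin.

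Genes of the AP-1 family and other immediate early genes, which answer growth factor and stress signals rapidly, differed at 24 h. Of 24, 17 rose and 0 fell (median 0.70). ATF3, a stress-induced factor of the ATF and CREB family, was at 5.06, 4.57 and 4.85 CPM in control vehicle and at 45.1, 43.8 and 43.5 CPM in H1047R insulin (log2 fold change 3.19 ± 0.122). FOSL1, which pairs with JUN proteins in AP-1, went from 16.1 ± 0.613 to 75.7 ± 1.56 CPM (log2 fold change 2.23 ± 0.078). KLF4, a zinc finger factor, and the orphan receptor NR4A3 rose by 1.97 ± 0.0693 and 2.07 ± 0.194, and MAFF, a small MAF factor, by 1.35 ± 0.0709. The AP-1 site TGANTCA, read on both strands, was in 1 of 18 windows of these genes (5.56%) and in 7.76% of all windows.

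Feedback genes of the ERK pathway and ligands of the EGF receptor rose in 18 of 29 cases with 1 lower (median 0.64), or 2 lower without control vehicle replicate 3. The ligand AREG was at 0.609, 0.857 and 0.467 CPM in control vehicle and at 3.43, 2.56 and 2.98 CPM in H1047R insulin (log2 fold change 2.17 ± 0.226). HBEGF, another ligand, rose by 1.21 ± 0.0851. DUSP10, a phosphatase of stress kinases, the ERK inhibitor SPRED3 and PHLDA1, a pleckstrin-like protein, rose by 1.19 ± 0.11, 1.16 ± 0.104 and 1.16 ± 0.0506. ERBB2, an EGF receptor relative, was the gene that fell (log2 fold change -0.33).

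ATF4 is the transcription factor that is translated when amino acids run short or protein folding fails and that mTORC1 also promotes. Of 42 of its targets and amino acid genes, 33 rose and 1 fell, with a median of 0.48. CHAC1, which degrades glutathione, was at 3.58, 3.64 and 3.22 CPM in control vehicle and at 25.6, 26.3 and 24.7 CPM in H1047R insulin (log2 fold change 2.87 ± 0.107). SLC3A2, the heavy chain of amino acid transporters, rose from 83.6 ± 4.29 to 292 ± 8.16 CPM, by 1.80 ± 0.0607. INHBE, an inhibin subunit, ASNS, asparagine synthetase, and PPP1R15A, the phosphatase subunit that restores translation, rose by 2.33 ± 0.23, 1.47 ± 0.21 and 1.43 ± 0.0526. NUPR1, a stress-induced nuclear protein, was the member that fell, by 0.96.

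The CHAC1 window (chr15:40953221-40953520, GRCh38.p14, + strand, 5′ to 3′) is shown because it holds the core of the C/EBP-ATF element, TGATGNAA, in capitals and reading on the opposite strand.
CHAC1: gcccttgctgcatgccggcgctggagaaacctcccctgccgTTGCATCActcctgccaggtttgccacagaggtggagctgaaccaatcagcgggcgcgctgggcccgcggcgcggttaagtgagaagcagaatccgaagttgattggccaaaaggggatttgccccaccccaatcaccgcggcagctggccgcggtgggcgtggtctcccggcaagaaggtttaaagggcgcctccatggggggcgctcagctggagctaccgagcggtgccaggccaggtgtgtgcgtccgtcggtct

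That core was found, on either strand, in 8 of 34 listed genes with a window (23.5%) and in 3.67% of all windows.

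The unfolded protein response raises chaperones of the endoplasmic reticulum (ER). Of 37 genes of this response and of ER-associated degradation, 13 rose and 4 fell (median 0.11), so that 45.9% were called, beside 40.3% of the genes averaging at least 1 CPM. HSPA5, the main ER chaperone BiP, rose from 394, 418 and 418 CPM to 635, 630.4 and 625 CPM (log2 fold change 0.62 ± 0.038). SDF2L1, a chaperone partner, XBP1, the factor spliced by IRE1, and the oxidase ERO1A rose by 0.74 ± 0.0866, 0.72 ± 0.0544 and 0.63 ± 0.043. The 4 that fell were DERL3, OS9, ATF6B and P4HB (log2 fold changes -1.72, -0.38, -0.28 and -0.15), and 1 or 2 genes of the list fell under 9 of the alternatives. Genes that carry proteins into the ER were split, with 9 of 28 higher and 7 lower (median -0.08), and 5 higher without H1047R insulin replicate 2. SEC61A2, a translocon channel, rose by 1.16 ± 0.084, while GET1, a receptor for tail-anchored proteins, fell by 1.18 ± 0.103 and the translocon partner TRAM1 by 0.46 ± 0.0442.

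Hypoxia-inducible factor HIF1, whose translation mTORC1 favours, drives genes for glucose use and vessel growth. Of 31 such targets, 23 rose and 3 fell (median 0.52). VEGFA, the main vessel growth factor, was at 55, 52.1 and 50.6 CPM in control vehicle and at 137, 135 and 135 CPM in H1047R insulin (log2 fold change 1.37 ± 0.0497). The lipase inhibitor ANGPTL4, the glycolytic regulator PFKFB4 and carbonic anhydrase CA9 rose by 1.98 ± 0.184, 1.86 ± 0.0703 and 1.31 ± 0.0838. The members that fell were MXI1, a MYC antagonist, EPAS1, which encodes HIF2A, and LOXL2, a lysyl oxidase (log2 fold changes -0.34, -0.29 and -0.18). The letters ACGTG, the hypoxia response element core, were on either strand in 11 of 23 windows of listed genes (47.8%) and in 21.6% of all windows.

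Of 20 genes of glycolysis, 15 rose and 1 fell (median 0.50). HK2, the inducible hexokinase, rose from 73.3 ± 2.68 to 179.6 ± 3.65 CPM (log2 fold change 1.29 ± 0.0567), and the glucose transporter SLC2A1 rose by 1.14 ± 0.0477. The widely expressed hexokinase HK1, the lactate exporter SLC16A3 and the aldolase ALDOC rose by 0.86, 0.76 and 0.74. PFKM, the muscle phosphofructokinase, fell by 0.25. Genes of sterol and fatty acid synthesis, targets of SREBP, were divided, with 11 of 34 higher and 9 lower (median 0.01), and 5 lower when only library totals were used for scaling. The acetyl-CoA synthetase ACSS2, INSIG1 and fatty acid synthase FASN rose by 0.51, 0.47 and 0.45, and the sterol reductase TM7SF2 fell by 0.57 ± 0.0489.

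In the PI3K pathway, 7 of 26 genes rose, PIK3CA among them, and 5 fell (median 0.01), against 3 that fell without H1047R insulin replicate 3. DDIT4, which inhibits mTORC1, was at 68, 66.4 and 66.2 CPM in control vehicle and at 159, 159 and 160 CPM in H1047R insulin (log2 fold change 1.25 ± 0.0543). TRIB3, a pseudokinase that binds AKT, rose by 1.14 ± 0.0542, and the mTOR inhibitor DEPTOR fell by 1.09 ± 0.212. PIK3IP1, an inhibitor of p110, fell by 0.48 ± 0.0903, a call that was lost without H1047R insulin replicate 3.

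FOXO targets and genes of insulin receptor feedback went both ways, with 6 of 27 tested higher and 9 lower (median -0.08). YPEL3, a growth suppressor, fell from 24.9, 26.6 and 27.5 CPM to 11.7, 11.6 and 11.2 CPM (log2 fold change -1.19 ± 0.0701), and the receptor ERBB3 fell by 1.05 ± 0.0664. GADD45A, a stress sensor, the death ligand TNFSF10 and TXNIP, which limits glucose uptake, rose by 1.65 ± 0.0635, 1.17 ± 0.0955 and 0.98 ± 0.0592. The insulin receptor INSR and IGF1R, its close relative, fell by 0.59 and 0.58. The FOXO site GTAAACA was on either strand in 4 of 25 windows of listed genes (16%) and in 3.41% of all windows.

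**Figure D3:**
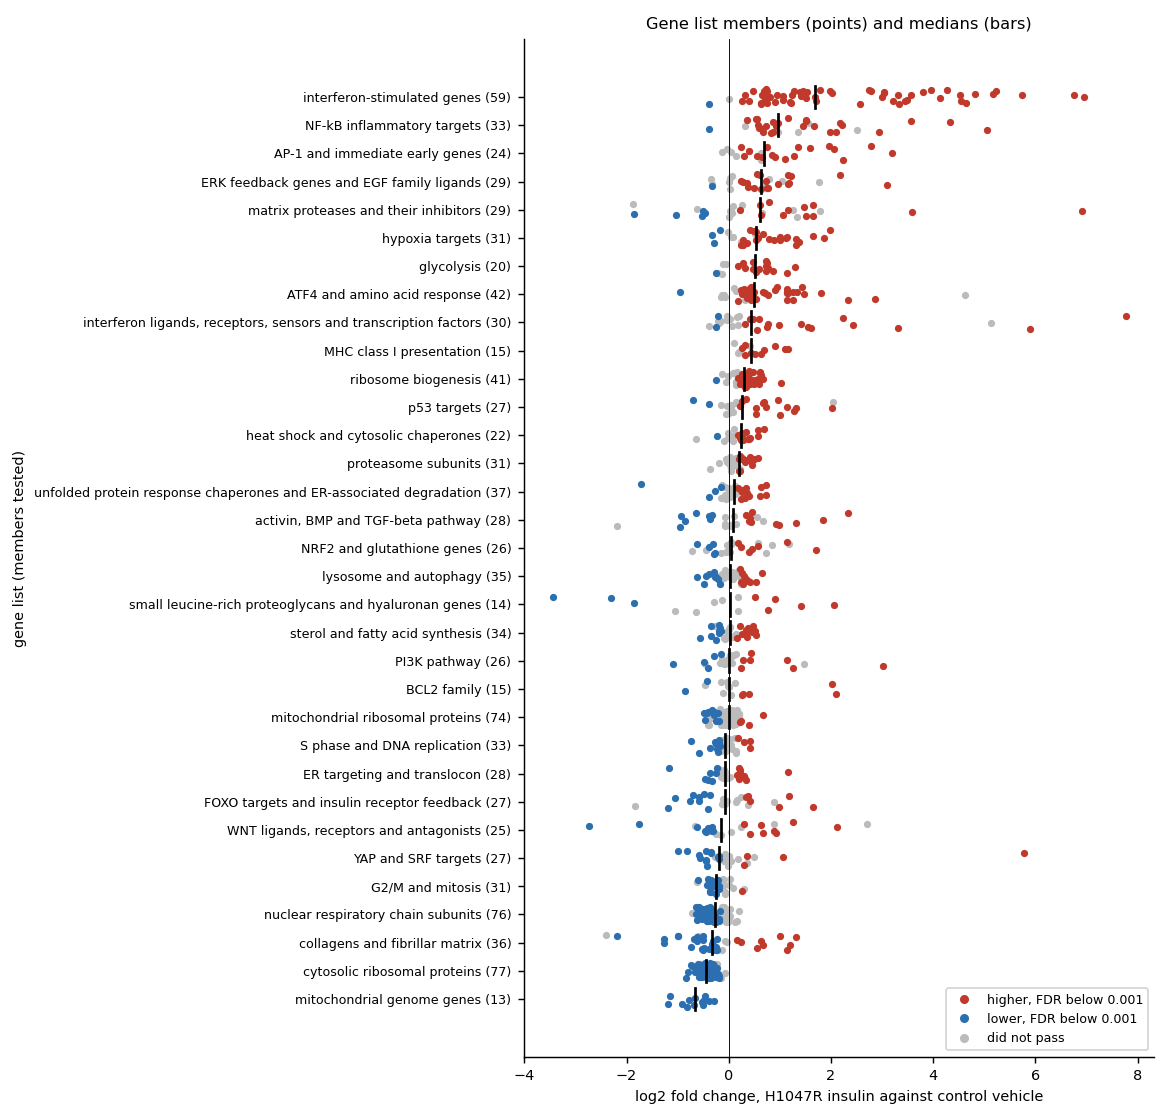
Log2 fold changes of H1047R insulin against control vehicle for the tested members of each gene list (points; red higher and blue lower at an FDR below 0.001, grey did not pass), with list medians as bars and the number tested in brackets. Medians run from 1.69 for the 59 interferon-stimulated genes to -0.67 for the 13 mitochondrial genome genes.

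Of 27 p53 targets, 14 rose and 2 fell (median 0.27). PMAIP1, the BH3-only protein NOXA, was at 33.6, 28.6 and 27.2 CPM in control vehicle and at 124, 119.5 and 121 CPM in H1047R insulin (log2 fold change 2.03 ± 0.0746). The cytokine GDF15 rose by 1.31 ± 0.109, the nuclease AEN by 1.28 ± 0.0641, the stress gene SESN2 by 1.14 ± 0.109 and the metabolic phosphatase TIGAR by 0.99 ± 0.092. The 2 that fell were ZMAT3, an RNA-binding protein, and the cyclin CCNG1 (log2 fold changes -0.69 and -0.40). In the BCL2 family, with 5 of 15 tested higher and 2 lower, the survival gene MCL1 rose by 0.39 ± 0.0372 and the BH3-only gene BMF fell by 0.86 ± 0.0829. BCL2L2, which rose by 0.28 ± 0.0684, lost its call under 7 alternatives. Of 22 heat shock genes tested, 14 rose and 1 fell (median 0.24), led by HSPH1, a large chaperone (0.68 ± 0.0422). The co-chaperone DNAJB4 was the one that fell (log2 fold change -0.24), a call that was lost under 6 alternatives.

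NRF2 targets and glutathione genes were mixed, with 7 of 26 tested higher and 5 lower (median 0.04). The oxidative stress gene OSGIN1 and the cystine transporter SLC7A11 rose by 1.70 ± 0.135 and 1.15 ± 0.0597, whereas GPX4, which removes lipid peroxides, fell from 203 ± 3.41 to 132 ± 8.56 CPM (log2 fold change -0.62 ± 0.0423). Of 35 lysosome and autophagy genes, 10 rose and 9 fell (median 0.03). The protease CTSL rose by 0.65 ± 0.0514 and the transcription factor MITF fell by 0.62 ± 0.0831.

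Factors that build ribosomes and the proteins of the ribosome itself moved apart. Of 41 ribosome biogenesis genes, 27 rose and 1 fell, or 2 without control vehicle replicate 3 (median 0.29), with NOP14 higher by 0.66 ± 0.0511 and the helicase DDX10 by 0.63 ± 0.0524. The gene that fell was the nucleolar protein NPM1, by 0.26. Of 77 cytosolic ribosomal protein genes tested, 0 rose and 73 fell, with a median of -0.45. RPL23, a protein of the large subunit, was at 999.9, 1048 and 903 CPM in control vehicle and at 537, 569 and 545 CPM in H1047R insulin (log2 fold change -0.84 ± 0.0466), and RPS3A of the small subunit fell by 0.79 ± 0.0427. The values of the family ran from -0.84 to -0.08, so none was 2-fold.

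All 13 protein-coding genes of the mitochondrial genome fell (median -0.67). MT-CYB, a subunit of complex III, went from 1956 ± 20 to 1042 ± 23.3 CPM (log2 fold change -0.91 ± 0.035), and MT-ND6 of complex I and MT-ATP8 of ATP synthase fell by 1.19 ± 0.0647 and 1.16 ± 0.0838. Of 76 nuclear genes for respiratory chain subunits, 41 fell and 0 rose (median -0.28), such as COX7C of complex IV (-0.61 ± 0.0439) and NDUFB1 of complex I (-0.64 ± 0.0657). Of 74 mitochondrial ribosomal protein genes tested, 4 rose and 10 fell (median 0.00), and 2 rose when control vehicle replicate 2 or 3 or H1047R insulin replicate 1 was left out.

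Many of these genes are short or have many pseudogene copies. With a gene length offset, the counts were 0 higher and 71 lower for cytosolic ribosomal proteins. They were 2 higher and 37 lower for respiratory chain subunits and 0 higher and 12 lower for the mitochondrial genome. For mitochondrial ribosomal proteins they were 10 higher and 8 lower with this offset. The share of multiply placed reads, given above, was lower in H1047R insulin, and of 1628 processed pseudogenes 12 rose and 35 fell. Of 4 markers of RNA quality and dying cells, 3 fell and 0 rose, with a summed level of 7313 to 7614 CPM in control vehicle and 5415 to 5623 CPM in H1047R insulin. Of these, MT-CO1 and MT-ND4 are also in the mitochondrial genome list, so the sum is not separate from that result. Outside that list, MALAT1 fell by 0.37 on the log2 scale and NEAT1 did not pass (-0.03). The part of multiply placed reads and RNA quality in the ribosomal and mitochondrial results was not tested.

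Transcripts of the extracellular matrix went both ways. Of 36 collagens and other fibrillar matrix genes, 9 rose and 22 fell (median -0.32). DCN (decorin, chromosome 12, 91140484 to 91183217), a small leucine-rich proteoglycan that binds collagen and growth factors, had the largest decrease of the called genes averaging at least 1 CPM. It went from 109.5, 91.2 and 98.9 CPM in control vehicle to 10.1, 9.9 and 7.55 CPM in H1047R insulin (log2 fold change -3.45 ± 0.0956, adjusted p = 1.32e-27). Its relatives LUM, which lies next to it, and BGN fell by 2.31 ± 0.071 and 1.85 ± 0.136. In the same list of 14 tested proteoglycan and hyaluronan genes, of which 5 rose and 3 fell, the hyaluronan synthases HAS2 and HAS3 rose by 2.06 ± 0.154 and 1.42 ± 0.144.

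POSTN, the matrix protein periostin, went from 355, 366 and 342 CPM to 79, 77.5 and 76.4 CPM (log2 fold change -2.19 ± 0.0533). COL3A1, the fibrillar collagen of soft tissue, went from 2206 ± 46.5 to 909 ± 27.6 CPM (log2 fold change -1.28 ± 0.0395), and the elastic fibre protein FBLN1 fell by 1.26 ± 0.0566. Those that rose included LAMB3, a laminin chain of epithelial basement membranes (1.31 ± 0.187), and the transmembrane collagen COL13A1 (1.19 ± 0.0809). Of the 12 fibroblast or stromal markers, some of which are these same genes, 10 fell and VIM rose, and their summed level was 8758 to 8814 CPM in control vehicle and 5987 to 6227 CPM in H1047R insulin. The summed epithelial markers were at 2990.3 to 3079 CPM and 3289 to 3307 CPM in these groups, a sum made up mostly of KRT8, KRT18 and KRT19. Of the 12 epithelial markers, 2 rose (KRT18 by 0.22 and KRT19 by 0.35) and 1 fell (KRT7 by 0.37). The others did not pass, KRT8 (-0.05) and CDH1 (-0.85) among them. The part of these cell type markers in the matrix result was not tested.

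**Figure D4:**
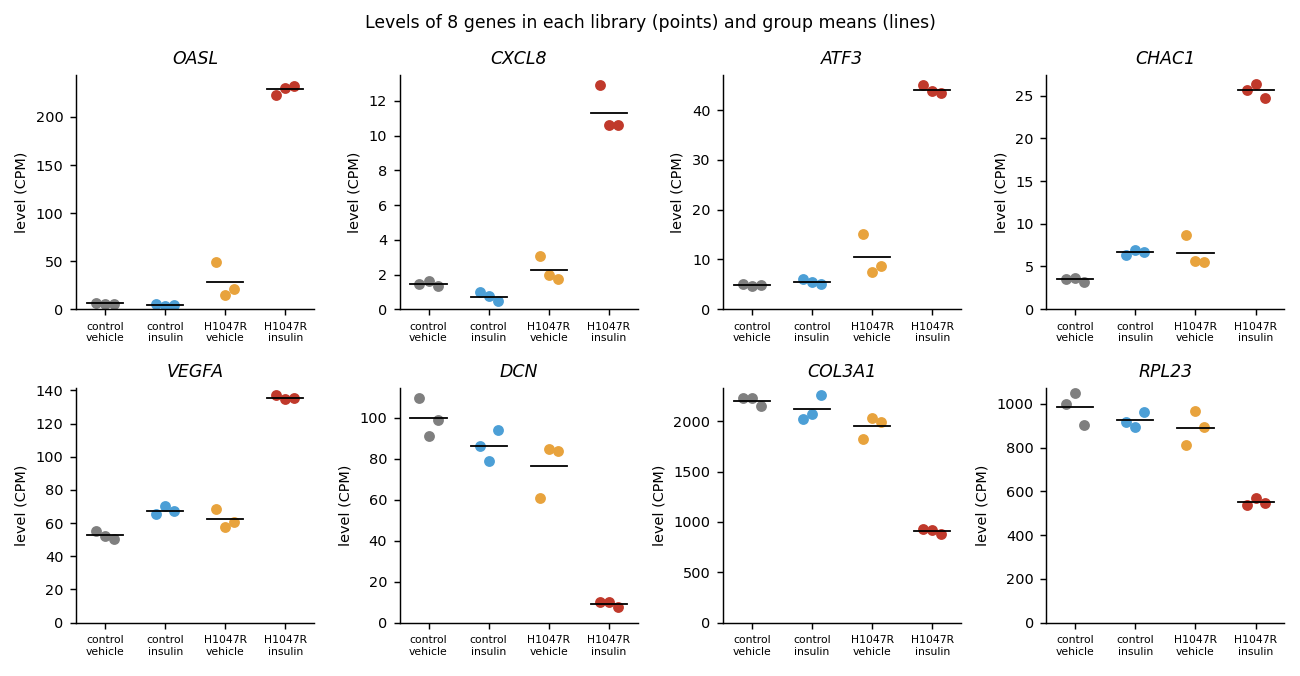
Levels in CPM of 8 genes in each of the 12 libraries (points) with group means (lines), on linear axes from 0. The H1047R insulin libraries lie above all others for OASL, CXCL8, ATF3, CHAC1 and VEGFA and below all others for DCN, COL3A1 and RPL23.

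Among proteases and their inhibitors, 12 of 29 tested rose and 5 fell (median 0.60). That median was 0.23 without H1047R insulin replicate 3, 0.26 with at least 1 CPM in 3 libraries, 0.25 without regard to strand and 0.26 after thinning. MMP1, interstitial collagenase, was at 0.343, 0.25 and 0.327 CPM in control vehicle and at 3.89, 3.77 and 3.5 CPM in H1047R insulin (log2 fold change 3.59 ± 0.304). MMP9, a gelatinase, had 0 counts in control vehicle and 16, 17 and 23 counts in H1047R insulin, at least 13.8-fold higher. The plasminogen activator PLAU rose from 40.9 ± 3.49 to 128 ± 4.84 CPM (1.64 ± 0.0702) together with its inhibitor SERPINB2 (1.51 ± 0.118). The aggrecanase ADAMTS5 fell by 1.85 ± 0.0948.

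Of 27 contractile and YAP-responsive genes, 4 rose and 13 fell (median -0.19). The smooth muscle genes CNN1, MYL9 and TAGLN fell by 1.00 ± 0.102, 0.83 ± 0.0441 and 0.58 ± 0.0845. ACTN2, the sarcomeric alpha-actinin, stood apart. It was at 0.114, 0.143 and 0.14 CPM in control vehicle and at 7.51, 6.96 and 8.01 CPM in H1047R insulin (log2 fold change 5.78 ± 0.257). Tissue factor, F3, rose by 1.06 ± 0.0624.

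Of 25 WNT pathway genes tested, 8 rose and 9 fell (median -0.14). Without control vehicle replicate 2 the median was 0.08, without H1047R insulin replicate 3 it was -0.29, with at least 1 CPM in 3 libraries it was -0.23, and without control vehicle replicate 1, 5 rose. The ligand WNT2 went from 4.87, 5.35 and 5.14 CPM to 1.01, 0.605 and 0.7 CPM (log2 fold change -2.75 ± 0.176) and WNT2B fell by 1.75 ± 0.203, while the receptors FZD8 and FZD1 and the ligand WNT7B rose by 1.25 ± 0.122, 0.88 ± 0.0919 and 0.92 ± 0.1. Of 28 genes of the activin, BMP and TGF-beta pathways, 10 rose and 7 fell (median 0.07). The BMP antagonist NOG rose by 0.97 ± 0.0996 and TGFB2, a TGF-beta ligand, fell by 0.96 ± 0.0698. The BMP antagonist GREM1 rose by 1.84 ± 0.187, a call that was lost when counts were taken without regard to strand (adjusted p = 0.221).

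Other large decreases were in genes of varied kinds. GAS1, a growth arrest protein and Hedgehog co-receptor, went from 62.2, 54.7 and 56.1 CPM to 8.72, 9.19 and 7.99 CPM (log2 fold change -2.74 ± 0.0769). SELENOP, the selenium transporter of plasma, and ALPP, placental alkaline phosphatase, fell by 2.59 ± 0.252 and 2.01 ± 0.148. The linker histone H1-4 fell by 2.31 ± 0.241, the melanocortin receptor MC4R by 2.04 ± 0.142, and the neural adhesion genes LRRTM3 and LSAMP by 1.96 ± 0.19 and 1.94 ± 0.21. Their control vehicle means were 3.21, 5.37, 3.05 and 2.72 CPM in this order. Messages of replication-dependent histones such as H1-4 mostly lack a poly(A) tail, which the libraries selected for.

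Of 31 genes of G2 and mitosis, 20 fell and 1 rose (median -0.24). CDK1, the mitotic kinase, went from 385, 364 and 357 CPM to 245, 245 and 234 CPM (log2 fold change -0.61 ± 0.0397), and the topoisomerase TOP2A fell by 0.41 ± 0.0338. The exception was the checkpoint kinase BUB1 (0.26). Of 33 genes of S phase, 10 fell and 4 rose (median -0.07). Only 2 rose when any 1 of the 6 compared libraries other than control vehicle replicate 2 was left out. The cyclin CCNE2 fell by 0.59 ± 0.0457 and the licensing factor CDC6 rose by 0.41 ± 0.0417. The cyclin CCNE1 rose by 0.41 ± 0.0963 and lost its call under 7 alternatives.

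The joint change was then compared with its parts. Against the same control vehicle libraries, insulin alone changed 372 genes (1.63%) and H1047R alone 36 genes (0.158%), 4 of them lower (0.0176%). Neither separate change was called for 2620 of the 2789 genes that rose jointly and for 2671 of the 2824 that fell. A missing call does not show that a separate change was absent, so the departure from the sum of both was tested directly as the interaction. It was called for 2064 of all genes (9.07%), 1043 above the sum (4.58%) and 1021 below it (4.49%). Among the 5613 genes of the joint comparison it was called for 1940 (34.6%). Of the joint increases, 968 were above the sum, 1 below it and 1820 not called, and of the joint decreases 966 were below, 5 above and 1853 not called. The joint fold and the interaction share libraries, so these counts are not independent of each other.

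The largest departures above the sum were those of RSAD2, IFI44L, ACTN2, OAS2, CMPK2 and OASL. RSAD2 changed by -0.83 ± 0.742 with insulin alone, by 2.98 ± 0.413 with H1047R alone and by 6.96 ± 0.259 with both, which was 4.81 ± 0.822 above the sum (adjusted p = 1.86e-05). In H1047R vehicle the RSAD2 libraries varied, at 12.5, 2.22 and 3.4 CPM, all above control vehicle. IFI44L, ACTN2, OAS2, CMPK2 and OASL were above the sum by 4.20 ± 0.889, 4.07 ± 0.789, 3.82 ± 0.584, 3.54 ± 0.516 and 3.45 ± 0.356. The calls of IFI44L, ACTN2, OAS2 and CMPK2 were lost without control vehicle replicate 2, at 3.59, 4.00, 3.30 and 2.99 above the sum. The largest departures below the sum were those of ALDH1A1, DCN, WNT2, LRRTM3, MC4R and H1-4. DCN changed by -0.21 ± 0.0764 and -0.38 ± 0.0776 separately, 2.86 ± 0.125 below the sum.

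Beside 4.58% of all genes above the sum and 4.49% below it, the sum was exceeded by 20 of 33 NF-kB genes, 12 of 24 AP-1 and immediate early genes and 17 of 29 ERK and EGF genes, with 0, 0 and 1 below it. Of 42 ATF4 genes 14 were above the sum and 3 below, of 31 hypoxia targets 13 and 0, and of 20 glycolysis genes 7 and 1. INHBE changed by 1.46 ± 0.262 and 1.00 ± 0.285 separately and by 2.33 ± 0.23 jointly, a departure of -0.13 ± 0.337 that did not pass. DDIT4 changed by 0.71 ± 0.0553 with insulin alone, and its joint change departed from the sum by 0.35 ± 0.077 (adjusted p = 0.000671). Of 77 ribosomal protein genes, 50 were below the sum and 0 above. The shares of all genes given above include genes with few counts. For the interaction, the share among genes averaging at least 1 CPM, the nearer background for the lists, was not worked out. The differences between lists were not tested.

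**Figure D5:**
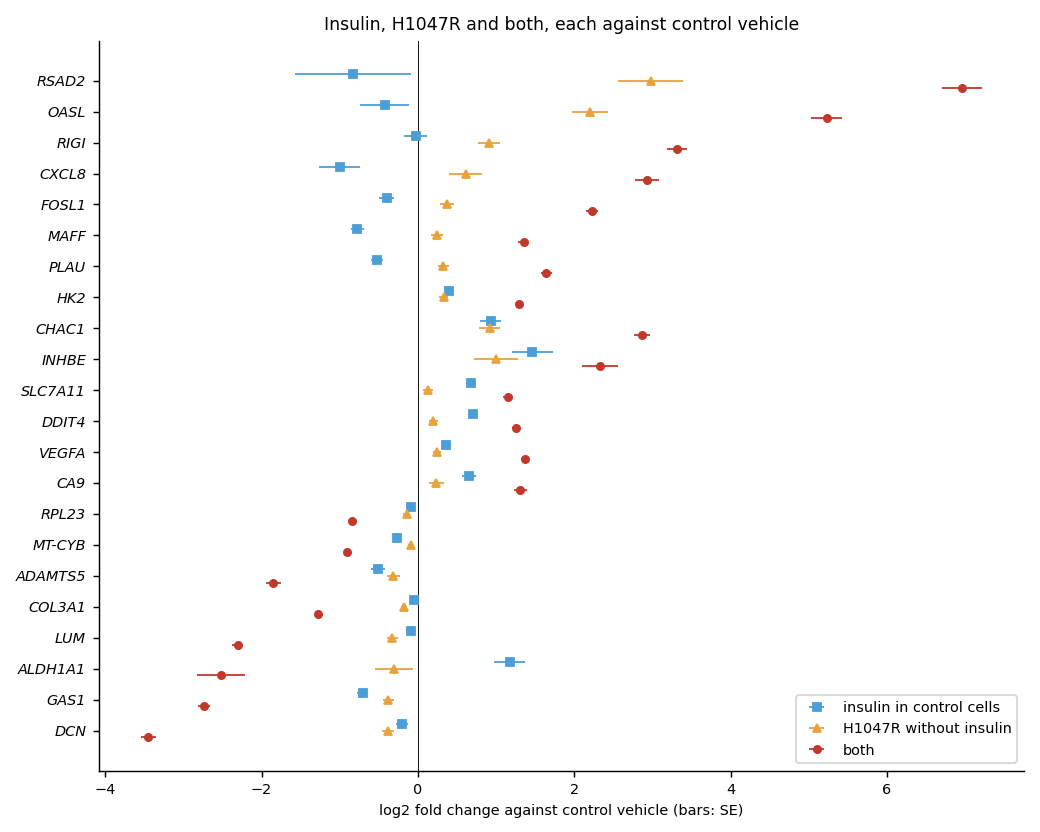
Log2 fold changes against control vehicle for insulin in control cells, H1047R without insulin and both together, with SE bars, for 22 named genes. All 3 contrasts share the control vehicle libraries, and for RSAD2 the joint value was 6.96 beside separate values of -0.83 and 2.98.

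Some genes moved jointly against their change with insulin alone, 63 of the joint increases and 6 of the joint decreases. More moved the same way in both, 78 of the joint increases and 144 of the joint decreases. ALDH1A1, a retinaldehyde dehydrogenase, had means of 1.92 CPM in control vehicle, 4.37 CPM in control insulin, 1.56 CPM in H1047R vehicle and 0.325 CPM in H1047R insulin. It was raised by insulin in control cells and lowered jointly. The reverse held for PLAU, at 40.9, 28.5, 51.4 and 128 CPM in these groups, and for MAFF, at 19.3, 11.3, 22.9 and 49.3 CPM. PHLDA1 and COL13A1 followed the same order, at 110.2, 78.3, 116 and 247 CPM and at 17.7, 11.2, 19.3 and 40.6 CPM.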

How the data were processed

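Libraries of mRNA from 12Z cells, each started with 500 ng of total RNA, formed 4 groups of 3, with groups and replicate numbers taken from the labels. Per the labels and the study's methods, the authors used cutadapt through Trim Galore for trimming, aligned the reads to hg38 with STAR and deposited its gene counts for each library. The methods name a GENCODE release of the mouse series beside hg38, so the release of the human annotation is uncertain, and versions of the trimming and alignment tools are not given there. The deposited counts are raw read counts per gene, unnormalized, in 3 columns (without regard to strand, forward and reverse). The reverse-strand column was used, since it held most stranded counts, and the rows for unmapped, multiply placed, unassigned and ambiguous reads were left out of library sizes and tests. They came, over the libraries compared, to 3.32 against 3.61%, 8.98 against 14.9%, 4.16 against 4.11% and 3.59 against 3.39% of reads in H1047R insulin and control vehicle.

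All genes with a mean of at least 1 count over the libraries were fitted with edgeR 4.0.16 (R 4.3.3, limma 3.58.1), with TMM scaling and quasi-likelihood tests, in 1 model of all 12 libraries (8 residual degrees of freedom). H1047R insulin was contrasted with control vehicle, and the interaction tested the departure from the sum of both separate changes. Log2 fold changes are given with an SE that was worked back from the change and its edgeR test statistic, not estimated separately. For the interaction, DESeq2 gave a larger SE for PIK3CA (0.241 against 0.123), OASL (0.58 against 0.356) and DCN (0.217 against 0.125). Among the largest interactions named, only ACTN2 had a smaller SE with DESeq2 (0.759 against 0.789). The p-values were adjusted by Benjamini-Hochberg over all genes tested, with calls at an FDR below 0.001. Counts allow exact intervals for single genes, which cover counting error only. The study describes independent experiments, which the labels do not tie to animals or donors. The p-values set a difference between group means against the spread of libraries within groups, estimated over all 12 libraries. Of 60617 identifiers, the name table held 60357, and 42009 of these carried a symbol.

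The members of the comparison, the 33 gene lists and the 5 marker lists were chosen with earlier results of these data known. Genes were named by a rule: PIK3CA and RSAD2, the 12 largest increases and decreases without overlap among called genes averaging at least 1 CPM, up to 5 called members of each list by size of change, and the 6 largest interactions in each direction. Alternatives were other scaling (DESeq2 size factors, library totals), other filters, DESeq2 1.42.0, counts without regard to strand, a fit of the 6 libraries alone, a replicate block, thinning, a gene length offset, other thresholds and leaving out each library. Tested on simulated counts of 22276 genes for H1047R insulin against control vehicle, the fit recovered 78% of 50 genes changed 1.5-fold, 94% at 2-fold, 96% at 3-fold and 98% at 4-fold, with 3 false calls. The 200 changed genes were drawn from those averaging at least 20 counts, so these rates do not cover genes with fewer counts. They were also far fewer than the 5613 genes called in the data. Promoter windows came from RefSeq (GRCh38.p14). Some genes that meet the naming rule are not reported here.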

Additional observations from a re-analysis of the deposited data

Results flagged for a closer look

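The change with insulin differed between H1047R and control cells, tested as the interaction, for 2064 genes. Among the named genes, 5 changed with insulin in opposite directions in the 2 kinds of cells, each past the threshold. The interaction was -3.40 on the log2 scale for ALDH1A1, 1.59 for PHLDA1, 1.74 for COL13A1, 1.84 for PLAU and 1.88 for MAFF. Counts on the strand opposite to PIK3CA, which entered no test, were at 70.7 CPM in the lowest H1047R insulin library and below 1 CPM in all control vehicle libraries.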

How the results depend on the processing

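At an FDR below 0.05, 8984 genes were called, 4475 higher and 4509 lower, and with a change over 2-fold added to the threshold 828 were called, 568 higher and 260 lower. Under the other settings that kept all libraries, 5199 (thinned to the shallowest library) to 5890 genes (no filter on low counts) were called. A fit of the 6 libraries alone called 6187. Scaling by library totals gave 57.8% higher calls against 49.7% with TMM, 3263 higher and 2386 lower. DESeq2 called 5345 genes, of which 5196 were shared, 92.6% of the edgeR calls and 97.2% of its own. Leaving out 1 of the 6 compared libraries gave 4724 to 5002 calls, 2334 to 2453 higher and 2369 to 2607 lower. Leaving out 1 of all 12 gave 1562 to 2564 interaction calls, 800 to 1483 higher and 762 to 1081 lower. The interaction range was set by H1047R vehicle, with its highest value without replicate 1 and its lowest without replicate 2. The 174 genes that meet the naming rule had 2784 values under the alternatives, of which 2768 kept direction and call. The call was lost in 16, in CCNE1, BCL2L2, PIK3IP1 and GREM1, with 0 turned. Genes named outside the rule, such as DNAJB4, are not among the 174. The interaction call of IFI44L was also lost with the filter of 1 CPM in 3 libraries (4.20), with DESeq2 (4.13) and when control vehicle replicate 1 (4.18) or replicate 2 of control insulin (3.75) was left out, and that of ACTN2 without control vehicle replicate 3 (4.04). Of 1056 list counts, 42 moved beyond 1.5 times. The causes were not tested.

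Replicate numbers are shared between groups, but deviations of same-numbered libraries from their group means correlated at -0.058 to 0.087, so the numbers were not taken as pairs. A fit with the replicate number as a block called 5579 genes, 2773 higher and 2806 lower, and 2062 interactions. Of the edgeR calls, 5521 were shared. Depth limits genes with few counts, such as IFNB1, whose change was not detectable at this threshold.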
